A study of Mus musculus with 2 samples.

Results

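Dlx1, Dlx2 and Dlx5 of the DLX family and Tfap2a, Tfap2b and Tfap2c of the AP-2 family were examined in single-cell transcriptomes of the embryonic mouse eye, 6 genes chosen by symbol from the 31053 in the count tables. The study asked how loss of the transcription factor MYRF affects the developing eye, mainly the retinal pigment epithelium (RPE). Both groups carried loxP sites in both copies of Myrf. The control group was Myrf fl/fl, and the mutant group, Rx>cre Myrf fl/fl, also carried a transgene in which Rx regulatory sequence drives Cre recombinase in the early eye field. Eye cups were taken at e15.5 without cornea, lens and optic nerve, and each group gave 1 library from a pool of 3, so no difference between the libraries has a replicate check. Cells that do not descend from the Rx domain, such as the mesenchyme, blood and muscle around the eye cup, lie outside the reach of this Cre as far as its regulatory sequence goes.

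DLX proteins are homeodomain transcription factors, related to Drosophila Distal-less, that bind AT-rich DNA. DLX1 and DLX2 are known in the retina for roles in ganglion cell differentiation and survival and in the forebrain for the making of GABAergic interneurons, and DLX5 is known in craniofacial mesenchyme and bone. AP-2 proteins bind GC-rich DNA as dimers: AP-2α (Tfap2a) and AP-2β (Tfap2b) act in neural crest, in surface ectoderm and in horizontal and amacrine cells of the retina, and AP-2γ (Tfap2c) is known from epidermis, trophoblast and germ cells.

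Dlx1 (ENSMUSG00000041911, GRCm38 chr2:71528113-71533981, plus strand) and Dlx2 (ENSMUSG00000023391, chr2:71543408-71546754, minus strand) are neighbours that point towards each other with 9426 bases between them. Dlx5 (ENSMUSG00000029755) lies at chr6:6877805-6882085 on the minus strand. Tfap2a (ENSMUSG00000021359) lies at chr13:40715302-40738376 on the minus strand, Tfap2b (ENSMUSG00000025927) at chr1:19208914-19238576 on the plus strand and Tfap2c (ENSMUSG00000028640) at chr2:172549593-172558622 on the plus strand. Promoter windows of 300 bases, from 250 before to 50 after the RefSeq start on GRCm38.p6, were at hand for 4 of the 6 genes. The windows of Dlx1 and Dlx2 are shown because the levels of these neighbours followed each other across cell clusters, and that of Tfap2b because it was the most counted of the 6. Each reads 5′ to 3′ on the gene's strand, and capitals mark matches to the E-box CANNTG, the core bound by bHLH factors such as ATOH7 and NEUROG2.
Dlx1 promoter, chr2:71529195-71529494, plus strand: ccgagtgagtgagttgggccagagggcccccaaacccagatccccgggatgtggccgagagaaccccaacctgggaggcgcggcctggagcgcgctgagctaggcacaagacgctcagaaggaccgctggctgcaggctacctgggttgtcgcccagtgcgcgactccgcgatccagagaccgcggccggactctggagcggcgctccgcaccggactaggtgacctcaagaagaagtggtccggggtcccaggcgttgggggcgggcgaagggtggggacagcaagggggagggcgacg
Dlx2 promoter, chr2:71546705-71547004, minus strand: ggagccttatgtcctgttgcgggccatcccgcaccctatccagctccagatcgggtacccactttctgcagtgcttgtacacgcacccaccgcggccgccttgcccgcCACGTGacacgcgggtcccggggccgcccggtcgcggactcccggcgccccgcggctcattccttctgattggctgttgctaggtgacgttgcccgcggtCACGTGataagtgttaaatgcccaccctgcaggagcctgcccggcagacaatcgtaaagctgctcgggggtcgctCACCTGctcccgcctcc
Tfap2b promoter, chr1:19211804-19212103, plus strand: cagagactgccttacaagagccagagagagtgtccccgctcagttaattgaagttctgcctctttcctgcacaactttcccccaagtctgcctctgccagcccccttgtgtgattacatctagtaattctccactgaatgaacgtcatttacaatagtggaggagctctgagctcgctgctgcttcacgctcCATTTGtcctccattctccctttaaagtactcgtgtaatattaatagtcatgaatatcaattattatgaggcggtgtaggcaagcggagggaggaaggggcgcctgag
The Dlx2 window held 3 E-boxes, CACGTG starting at -142 and -42 and CACCTG at +34 from the start site, the Tfap2b window held 1, CATTTG at -58, and the Dlx1 window held none. Of the 32851 RefSeq windows, 72.31% held a CANNTG. The homeodomain core TAATTA, present in 5.29% of all windows, was found in none of these 3 and once in the upstream window of Tfap2a (chr13:40734871-40735170, at -32). The AP-2 motif GCCNNNGGC, present in 16.59% of all windows, was in no window of these genes. All of these motifs read the same on both strands and none overlapped another. A match is only a match of letters, and its absence says nothing about binding. The share of G and C was 69.3% in the Dlx1 window, 66.3% in that of Dlx2 and 48.3% in that of Tfap2b.

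The libraries held 13017 control and 13880 mutant barcodes with 132436812 and 135678970 unique molecular identifiers (UMIs, each a counted transcript), and the median barcode had 9339 and 8702 UMIs. Filters kept 11576 and 12623 cells, which formed 33 clusters, and 28 of these were named from marker genes. The 6 genes and all naming markers were left out of the clustering. Doublets were removed at 3.06% and 3.03%, below the 9.55% and 10.4% expected from the loading, so doublets remained, and 59 barcodes occurred among the kept cells of both libraries. Y-linked UMIs occurred in 0.0259% of control against 41.77% of mutant cells and Xist UMIs in 71.73% against 27.47%, so the sex of the pooled embryos and the genotype cannot be told apart. Myrf itself had 293 UMIs in 371 control RPE-like cells and 58 in 203 mutant ones, or 76.2 CPM (67.7 to 85.4) against 30.3 CPM (23.0 to 39.2), where CPM is UMIs of a gene per 1000000 UMIs of the class. Brackets after a level or ratio give exact 95% intervals, which cover counting error only.

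Dlx1 and Dlx2 were counted mostly in other classes than Tfap2a and Tfap2b, amacrine-like cells held all 4, and Tfap2c and Dlx5 did not follow their families. Of the 2028 control and 2479 mutant Dlx1 UMIs, 59.0% and 54.9% lay in neurogenic-like cells, the progeny of progenitors that are leaving the cycle, 21.4% and 20.3% in amacrine-like cells and 10.3% and 12.02% in ganglion-like cells. Of the 2356 and 3238 Dlx2 UMIs, 72.5% and 68.0% were neurogenic, 8.74% and 8.77% amacrine and 7.43% and 8.34% ganglion. Tfap2b, with 15216 and 13260 UMIs the most counted of the 6, had 79.3% and 64.7% of them in mesenchyme-like cells, 9.73% and 13.1% in amacrine-like cells and 6.56% and 15.7% in amacrine/horizontal-like cells. Tfap2a, with 855 and 1313 UMIs, was divided between amacrine/horizontal-like cells (40.1% and 48.7%), amacrine-like cells (23.6% in both), surface epithelium-like cells (10.6% and 11.3%), mesenchyme-like cells (10.3% and 6.17%) and melanocyte-like cells (7.13% and 2.82%). Tfap2c had 219 and 303 UMIs, of which amacrine-like cells held 42.0% and 42.9%, neurogenic-like cells 22.8% and 19.5% and surface epithelium-like cells 18.3% and 18.8%. Dlx5 was nearly silent, with 35 control and 52 mutant UMIs, and 85.7% and 67.3% of these were in mesenchyme-like cells. These shares follow the number of cells of each class as well as the level per cell.

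**Figure D1:**
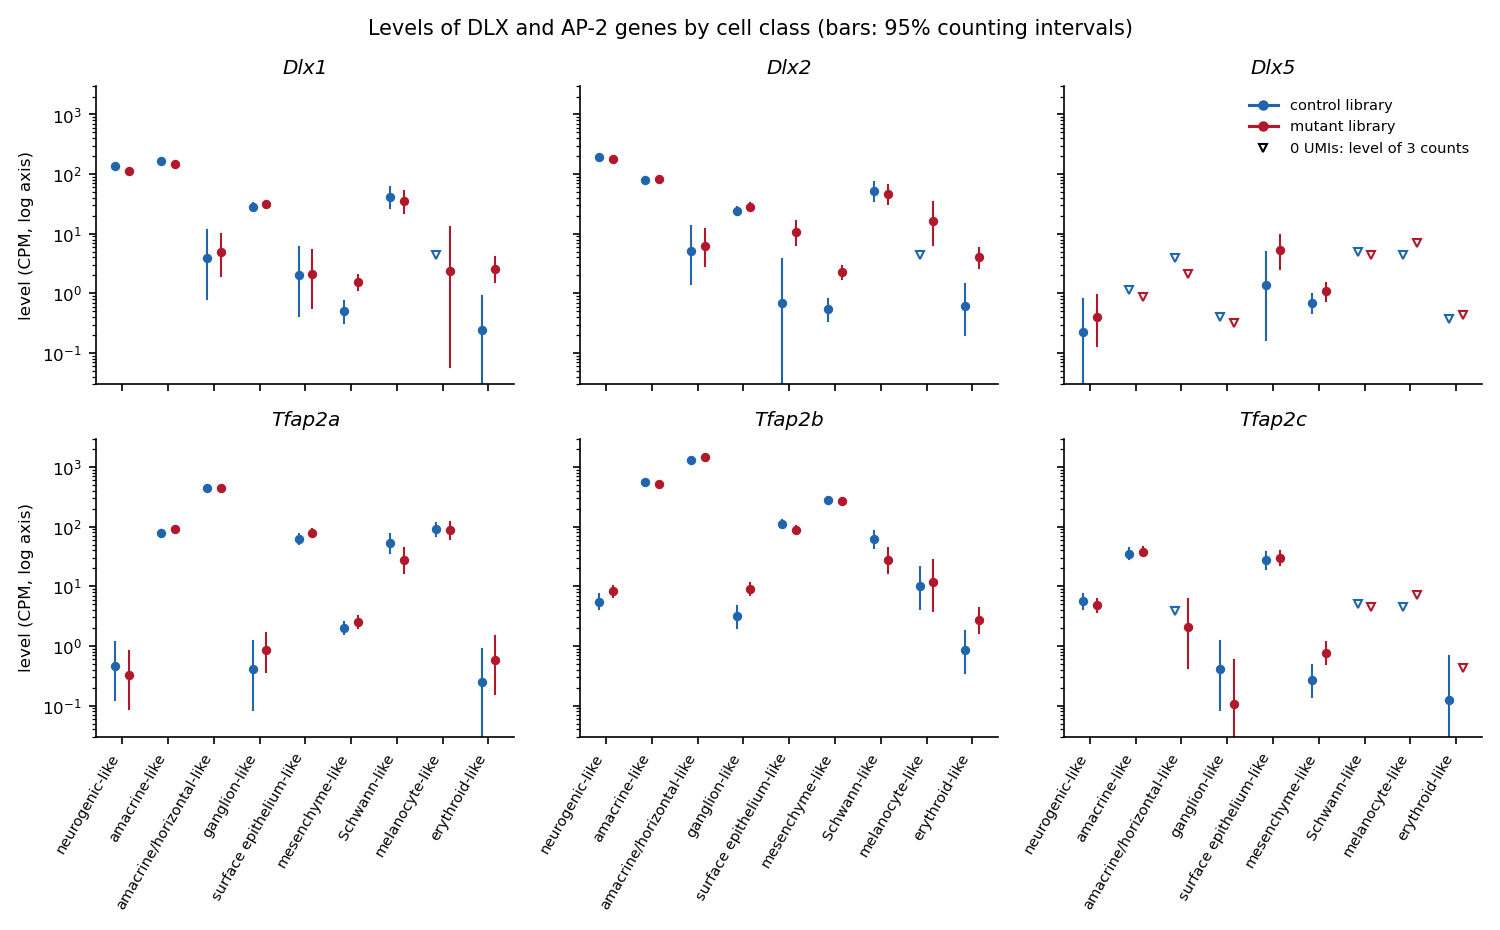
Level of each gene, in CPM on a log axis, in 9 cell classes of the control (blue) and mutant (red) library, with 95% counting intervals as bars that are cut at the lower edge of the axis. An open triangle stands for 0 UMIs and sits at the level that 3 counts would give. Tfap2b reached 1305 and 1450 CPM in amacrine/horizontal-like cells, while Dlx1 there was at 3.92 and 4.88 CPM.

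Neurogenic-like cells were the main site of Dlx2 and held much of Dlx1. The 801 control cells and 1126 mutant cells held all 12 markers of the class, among them Atoh7 and Neurog2, proneural bHLH genes, and Dll1, a Notch ligand. Dlx2 was counted 1708 times in control and 2202 times in mutant cells, a level of 193 CPM (184 to 203) and 180 CPM (172 to 187). Dlx1 had 1196 and 1360 UMIs, a level of 135 CPM (128 to 143) and 111 CPM (105 to 117). A Dlx2 UMI was present in 57.9% of control and 55.6% of mutant cells and a Dlx1 UMI in 46.1% and 42.8%. With every cell thinned to 2000 UMIs, the shares were 27.4% and 25.5% for Dlx2 and 18.6% and 18.1% for Dlx1. In erythroid-like cells, which should lack both genes, the thinned shares were 0.211% and 0.484% for Dlx2 and 0% (0 of 475 cells) and 0.242% for Dlx1, at a median of 16961 and 16863 UMIs a cell against 10455 and 10037.5 in the neurogenic class. The neurogenic shares therefore stood far above those of erythroid-like cells. The part of free RNA and of doublets in the erythroid-like shares was not tested.

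The mutant to control ratio in this class was 0.820 (0.758 to 0.887) for Dlx1 and 0.930 (0.872 to 0.991) for Dlx2. Neither passed a ratio of 1.5 in either direction, the size used throughout to call a difference, and 0 of the 4 genes that had at least 20 UMIs over both libraries did so, against 6.72% of all 12235 genes measured in the class. The lower Dlx1 level depended on which cells were counted: its log2 ratio, -0.29, was -0.038 with a mitochondrial limit of 5%, 0.042 without cells over 20000 UMIs and -0.0755 at a finer clustering. Within the class the lower level lay in 1 of 3 clusters. In the cluster led by Gadd45a, Atoh7 and Gal (379 and 506 cells), Dlx1 was at 187 against 132 CPM, control before mutant, a ratio of 0.708 (0.634 to 0.791), and Dlx2 at 184 and 153 CPM, a ratio of 0.828 (0.743 to 0.922). In the cluster led by Neurog2 and Olig2, the ratios were 0.986 (0.856 to 1.14) for Dlx1 and 0.947 (0.859 to 1.05) for Dlx2. The cycling cluster led by Atoh7, Neurog2 and Pkib, with Cdc20 and Ccnb1 among its leading genes, had ratios of 0.993 (0.819 to 1.21) and 1.06 (0.918 to 1.21).

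Dlx2 and Dlx1 did not keep a fixed proportion. The number of Dlx2 UMIs per Dlx1 UMI, taken within a library so that depth cancels, was 2.09 (1.84 to 2.39) in the control and 2.01 (1.80 to 2.25) in the mutant in the Neurog2 and Olig2 cluster. It was 1.85 (1.54 to 2.22) and 1.96 (1.69 to 2.28) in the cycling neurogenic cluster, and 0.987 (0.885 to 1.10) and 1.15 (1.03 to 1.29) in the Gadd45a and Atoh7 cluster. Ganglion-like cells had 0.877 (0.691 to 1.11) and 0.932 (0.772 to 1.13) in the cluster led by Isl1 and Pou4f2 and 0.741 (0.480 to 1.14) and 0.810 (0.548 to 1.19) in the cluster led by Sncg and Nefl. Amacrine-like cells had the lowest value of the clusters with enough counts, 0.475 (0.4002 to 0.562) and 0.565 (0.486 to 0.654). In both libraries the intervals of the Neurog2 cluster, the Gadd45a cluster and the amacrine cluster were separate from one another, while those of the Gadd45a cluster and the first ganglion cluster, and of the second ganglion cluster and the amacrine cluster, overlapped. Progenitor-like cells had 67 control and 96 mutant Dlx2 UMIs, but the thinned shares of cells with one, 0.435% and 0.385%, lay near the 0.211% and 0.484% of erythroid-like cells, so no expression is read from them. A UMI count from the 3′ end depends on the gene's own end sequence, so the proportion compares clusters and not the true amounts of the 2 transcripts.

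**Figure D2:**
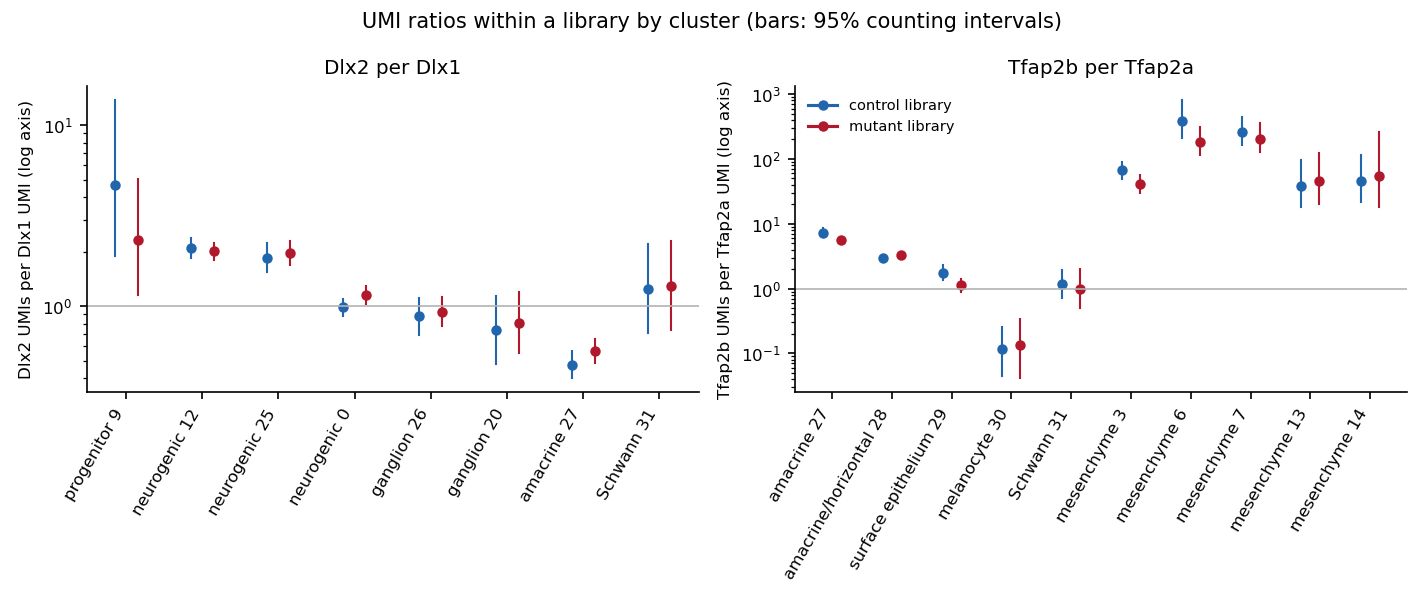
UMIs of Dlx2 per UMI of Dlx1 (left) and of Tfap2b per UMI of Tfap2a (right) in each cluster, on log axes, for the control (blue) and mutant (red) library, with 95% counting intervals as bars and a line at 1. Dlx2 per Dlx1 went from 2.09 and 2.01 in the Neurog2 cluster (neurogenic 12) to 0.475 and 0.565 in amacrine-like cells, and Tfap2b per Tfap2a ran from 0.115 and 0.135 in melanocyte-like cells to 391 in mesenchyme 6 of the control and 207 in mesenchyme 7 of the mutant.

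The neighbours were found together in the same cells. Of control neurogenic-like cells with a Dlx1 UMI after thinning to 2000 UMIs, 76 of 147 also had a Dlx2 UMI, or 51.7% (43.3% to 60.01%), against 21.9% (18.8% to 25.3%) of those without. In the mutant the count was 99 of 202, or 49.0% (41.9% to 56.1%), against 20.3% (17.8% to 23.1%). At 5000 UMIs a cell the shares were 68.6% against 28.6% in the control and 69.7% against 30.1% in the mutant, so the pairing held in both libraries and at both depths. In amacrine-like cells Dlx2 was in 19.8% (11.96% to 29.8%) of Dlx1 cells against 12.1% in the control and 22.2% (14.5% to 31.7%) against 11.4% in the mutant, with overlapping intervals. At 5000 UMIs the amacrine shares were 34.1% (26.1% to 42.8%) against 16.6% (11.3% to 23.05%) in the control and 38.6% (30.7% to 47.1%) against 21.3% (16.3% to 27.1%) in the mutant, with separate intervals.

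Cells with and without a DLX gene inside the neurogenic class also differed in other genes. Genes were ranked in the control library by their level in the 288 thinned cells with a Dlx1 or Dlx2 UMI over that in the 503 cells without, and their values were then read in the mutant library, which had no part in the choice (388 and 729 cells, 4518 genes ranked). The 8 highest were Insm2, Stxbp3, Gm266, Pou4f2, Gal, Hey1, Adgrl3 and Rhbdl3, and in the mutant all 8 were again higher in the cells with a DLX gene, with a counting interval above 1. Insm2, a zinc-finger factor of neuroendocrine and neuronal differentiation, had a ratio of 4.86 in the control and 4.00 (2.99 to 5.39) in the mutant. Pou4f2, the POU factor of ganglion cells, had 3.49 and 3.33 (2.27 to 4.94). Gal, which encodes the neuropeptide galanin, had 3.44 and 4.20 (3.76 to 4.71), and Hey1, a Notch effector, 3.37 and 2.47 (1.59 to 3.87). The ranking depended on depth: at 5000 UMIs a cell the 8 highest were Gal, Sp8, Insm2, Edil3, Pou4f2, Isl1, Gm266 and Ccdc182, of which 4 are shared, and the ratios were larger, 20.7 and 11.3 for Gal, 11.2 and 7.61 for Insm2 and 6.69 and 11.2 for Pou4f2. The 8 lowest included Cck, Prdm1, Id2, Bcor, Sorcs2, Gadd45g and Espn, again lower in all 8 in the mutant but with an interval below 1 in 5. Prdm1, a repressor known from photoreceptor precursors, had 0.194 and 0.359 (0.217 to 0.571), and Espn 0.278 and 0.537 (0.318 to 0.872).

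Listed genes were read the same way. Isl1, a LIM homeobox gene of ganglion cells, was 2.46 times as high in cells with Dlx1 or Dlx2 in the control and 3.79 times in the mutant, and Onecut2 1.97 and 1.36 times, the latter with an interval (0.993 to 1.84) that included 1. Onecut1, by contrast, was at 0.482 and 0.404 of the level in the other cells. Atoh7, needed for ganglion cell fate, was 1.30 and 1.33 times as high, whereas Neurog2 was at 0.530 and 0.651 and Neurod4 at 0.305 and 0.209 of the level in the other cells. The photoreceptor genes Otx2 (0.419 and 0.432) and Crx (0.0624 and 0.188) were lower as well, and Olig2, a progenitor gene, was at 0.530 and, with an interval up to 1.03, 0.786. Gad2, a GABA-synthesis enzyme, was at 1.75 and 1.58. Ptf1a, the determinant of amacrine and horizontal fate, did not hold its direction, at 0.759 (0.477 to 1.18) in the control and 1.64 (1.26 to 2.14) in the mutant. So neurogenic cells with a DLX gene carried more Isl1 and Pou4f2 and less Otx2 and Crx in each library by itself. This comparison crosses the 3 neurogenic clusters, which differ in their DLX levels.

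AP-2 genes were sparse in neurogenic-like cells. Tfap2b had 49 control and 101 mutant UMIs, 5.55 CPM (4.10 to 7.33) and 8.24 CPM (6.71 to 10.0), and its ratio of 1.49 (1.05 to 2.14) lay just under the size for a call, which it passed in 3 of 9 alternative settings, while its log2 ratio was -0.022 without cells over 20000 UMIs. Tfap2c had 50 and 59 UMIs, 5.66 and 4.82 CPM, with a ratio of 0.851 (0.574 to 1.27). In the cycling cluster it was at 11.2 CPM (6.87 to 17.4) and 4.62 CPM (2.39 to 8.07), a ratio of 0.411 (0.183 to 0.882), and in the Neurog2 and Olig2 cluster at 6.41 CPM (4.02 to 9.71) and 8.47 CPM (6.13 to 11.4), a ratio of 1.32 (0.773 to 2.32). The Gadd45a cluster had the lowest level of the 3 in both libraries, 2.20 and 0.874 CPM. Tfap2a had 4 UMIs in each library. Among control cells with Dlx1 or Dlx2 after thinning to 2000 UMIs, 2 of 288 had Tfap2b and 1 had Tfap2c. These shares were 0.694% and 0.347%, against 1.59% and 2.19% of the cells without. In the mutant they were 1.80% and 1.03%, against 1.92% and 1.37%. All of these intervals overlapped between cells with and without a DLX gene. Of the 6 measured genes linked to DLX factors, 1 was called, Pou4f2, at 90.7 and 51.8 CPM (ratio 0.572, 0.514 to 0.635). Of the 9 measured lineage factors 1 was called, Isl1, at 145 and 78.6 CPM (0.543, 0.499 to 0.591).

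In ganglion-like cells Dlx1 and Dlx2 were at a lower level, and lower in the cluster led by Sncg and Nefl than in the other one. Over the class (450 and 570 cells) Dlx1 had 208 and 298 UMIs, 28.4 CPM (24.7 to 32.6) and 31.5 CPM (28.04 to 35.3), and Dlx2 had 175 and 270 UMIs, 23.9 CPM (20.5 to 27.7) and 28.6 CPM (25.3 to 32.2). In the cluster led by Isl1, Igfbpl1 and Pou4f2, newly made ganglion cells by these genes, Dlx1 was at 46.3 and 56.6 CPM and Dlx2 at 40.6 and 52.7 CPM. In the cluster led by Sncg and Nefl, markers of maturing ganglion cells, Dlx1 was at 13.5 and 11.9 CPM and Dlx2 at 10.0 and 9.62 CPM. The intervals of the 2 clusters did not overlap in either library. The mutant to control ratio over the class was 1.11 (0.926 to 1.33) for Dlx1 and 1.19 (0.984 to 1.45) for Dlx2, and the log2 ratios of both were between -0.22 and -0.34 under 3 alternatives (mitochondrial limit of 5%, no cells over 20000 UMIs, finer clustering), so their direction is not settled. Among cells of at most 2000 UMIs, Dlx2 reached a log2 ratio of 0.96.

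Tfap2b was the 1 gene called among the 3 measured in ganglion-like cells, where 7.18% of all 12069 genes were called. It had 23 control and 86 mutant UMIs, 3.14 CPM (1.99 to 4.71) and 9.10 CPM (7.28 to 11.2), a ratio of 2.90 (1.81 to 4.81). Of the mutant UMIs 62.8% came from 5 cells, and with every cell thinned 2 of 445 control and 7 of 564 mutant cells had one. The call was lost under 4 of 10 alternatives. Against a log2 ratio of 1.53, the value was -0.067 when doublets were kept, 0.53 without cells over 20000 UMIs, 0.21 among cells of at most 2000 UMIs and 0.54 in cells with an Xist UMI and no Y-linked UMI. Of 9 lineage factors measured, 4 were called higher and 1 lower. Prdm13, an amacrine gene, was higher on 3 and 26 UMIs. The summed level of the 8 progenitor markers in the class was 179 and 271 CPM and that of the 12 mesenchyme markers 92.5 and 152 CPM, and their part in the Tfap2b value was not tested. Tfap2a had 3 and 8 UMIs there, Tfap2c 3 and 1, and Dlx5 0 in both, which allows up to 0.410 and 0.317 CPM by 3 counts.

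Amacrine-like cells, named after the inhibitory interneurons of the inner retina, were the class that held 5 of the 6 genes. The class was 1 cluster of 324 control and 432 mutant cells led by Ptf1a and Prdm13. Onecut2, a horizontal marker, was also among its leading genes. Its amacrine markers summed to 1686 and 1527 CPM and its horizontal markers to 1160 and 797 CPM. Its neurogenic markers summed to 2763 and 2834 CPM, so the class was not amacrine alone by its markers. Tfap2b had 1480 and 1737 UMIs, 568 CPM (540 to 598) and 510 CPM (487 to 535), and was found in 73.5% and 72.7% of cells. Dlx1 had 434 and 503 UMIs, 167 CPM (151 to 183) and 148 CPM (135 to 161), in 53.1% and 49.8% of cells. Dlx2 had 206 and 284 UMIs, 79.1 CPM (68.6 to 90.6) and 83.5 CPM (74.0 to 93.8). Tfap2a had 202 and 310 UMIs, 77.5 CPM (67.2 to 89.0) and 91.1 CPM (81.2 to 102), and Tfap2c 92 and 130 UMIs, 35.3 CPM (28.5 to 43.3) and 38.2 CPM (31.9 to 45.4). Dlx5 was at 0 UMIs in both libraries, which allows up to 1.15 and 0.882 CPM by 3 counts.

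No gene of the 5 measured was called between the libraries in amacrine-like cells, where 9.72% of all 10408 genes were. The ratios were 0.887 (0.779 to 1.01) for Dlx1, 1.06 (0.879 to 1.27) for Dlx2, 1.18 (0.981 to 1.41) for Tfap2a, 0.899 (0.838 to 0.964) for Tfap2b and 1.08 (0.822 to 1.43) for Tfap2c. The interval of Tfap2b lay below 1 and the other 4 included 1. Under 4 of 9 alternatives Dlx1 passed the size for a lower call, with log2 ratios from -0.59 to -0.71 against -0.17. Over all 9, the log2 ratio of Tfap2b ran from -0.14 to 0.11. Beside them, Onecut1 and Lhx1, genes of horizontal cells, were called lower at ratios of 0.499 (0.374 to 0.661) and 0.455 (0.244 to 0.827), and Isl1 and Pou4f2 higher at 3.26 (1.96 to 5.70) and 3.52 (1.31 to 11.9), the last on 5 and 23 UMIs. Olig2 was also called higher, on 10 and 23 UMIs, with an interval (0.806 to 4.15) that included 1. Of the AP-2 cofactors 1 of 5 was called, Cited4, on 6 and 16 UMIs and likewise with an interval (0.759 to 6.37) that included 1.

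The amacrine/horizontal-like cluster (121 and 217 cells) had the highest level of both Tfap2a and Tfap2b of any class and almost no DLX transcript. Its other leading genes were Onecut2, Onecut3 and Lhx1, which mark horizontal cells and their precursors. Tfap2b had 998 and 2079 UMIs, 1305 CPM (1225 to 1389) and 1450 CPM (1388 to 1514), and Tfap2a 343 and 639 UMIs, 449 CPM (402 to 499) and 446 CPM (412 to 482). A Tfap2b UMI was in 96.7% and 98.6% of cells and a Tfap2a UMI in 86.8% and 88.5%. The ratios were 1.11 (1.03 to 1.20) for Tfap2b and 0.994 (0.870 to 1.14) for Tfap2a, and 0 of these 2 were called against 15% of 8924 genes. Dlx1 had 3 and 7 UMIs, Dlx2 4 and 9, Tfap2c 0 and 3 and Dlx5 0 and 0. From amacrine-like to amacrine/horizontal-like cells the UMIs of Tfap2b per UMI of Tfap2a went from 7.33 (6.32 to 8.53) to 2.91 (2.57 to 3.30) in the control and from 5.60 (4.96 to 6.34) to 3.25 (2.98 to 3.56) in the mutant.

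Inside the amacrine class, cells with Tfap2a also tended to have Tfap2b, and both had lower shares in cells with a DLX gene, a difference that was not tested. Of thinned control cells with Tfap2a, 31 of 35 had Tfap2b, or 88.6% (73.3% to 96.8%), against 49.1% (43.2% to 55.1%) of the rest, and in the mutant 45 of 64, or 70.3% (57.6% to 81.1%), against 49.0% (43.8% to 54.3%). Of cells with Dlx1 or Dlx2, 42.1% (32.9% to 51.7%) of 114 control cells had Tfap2b, against 59.8% (52.7% to 66.6%) of the rest, and 43.4% (34.9% to 52.2%) of 136 mutant cells against 56.4% (50.5% to 62.2%). Tfap2a was in 6.14% of DLX cells and 13.7% of the rest in the control and in 7.35% and 18.7% in the mutant. The intervals of DLX cells and the rest were apart for Tfap2b in the control and Tfap2a in the mutant and overlapped in the other 2 cases. Tfap2c went the other way, with 11.4% against 6.37% in the control and 11.03% against 6.23% in the mutant, although these intervals overlapped. Among cells with Tfap2c, Tfap2b was in 57.7% against 53.1% of the rest in the control and in 39.4% against 53.3% in the mutant, and Tfap2a in 7.69% against 11.3% and in 9.09% against 15.6%. At 5000 UMIs a cell the directions given for DLX cells held, with Tfap2a in 13.8% of DLX cells against 39.0% of the rest in the control and 13.3% against 37.8% in the mutant, both with separate intervals, while those of Tfap2b overlapped in each library. Tfap2c was in 15% against 9.93% of control cells, with overlapping intervals, and in 21.4% (15.9% to 27.8%) against 9.57% (5.77% to 14.7%) of mutant cells, with separate ones. The shares of Tfap2b beside Tfap2c did not keep a direction: at 5000 UMIs they were 78.9% against 71.9% in the control and 76.7% against 67.6% in the mutant.

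Surface epithelium-like cells expressed all 3 AP-2 genes, and Dlx1, Dlx2 and Dlx5 had few UMIs there. The class was 1 cluster of 83 control and 110 mutant cells, led by the keratins Krt15, Krt5, Krt14 and Krt12, the last known from corneal epithelium although the cornea had been removed. Tfap2a had 91 and 149 UMIs, 62.5 CPM (50.3 to 76.8) and 78.7 CPM (66.6 to 92.4), in 56.6% and 67.3% of cells. Tfap2b had 161 and 168 UMIs, 111 CPM (94.2 to 129) and 88.8 CPM (75.9 to 103), in 65.1% and 54.5% of cells. Tfap2c had 40 and 57 UMIs, 27.5 CPM (19.6 to 37.4) and 30.1 CPM (22.8 to 39.0). The ratios were 1.26 (0.964 to 1.65), 0.803 (0.643 to 1.00) and 1.10 (0.719 to 1.69), none of them a call. The UMIs of Tfap2b per UMI of Tfap2a were 1.77 (1.36 to 2.31) in the control and 1.13 (0.899 to 1.42) in the mutant.

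Of the 4 genes measured in this class 1 was called, Dlx2, against 17.6% of all 9850 genes. Dlx2 was counted once in control cells and 20 times in mutant ones, a ratio of 15.4 (2.46 to 638), and 85% of the mutant UMIs came from 5 cells. Dlx1 had 3 and 4 UMIs. Dlx5 had 2 and 10 UMIs, 1.37 CPM (0.166 to 4.96) and 5.28 CPM (2.53 to 9.72), too few for a ratio. The 12 neurogenic markers, all of them detected, summed to 222 and 552 CPM in this epithelial class, and Atoh7 alone was at 55.6 and 291 CPM, a ratio of 5.23 (4.14 to 6.69). Their part in the Dlx2 value was not tested. Among genes linked to AP-2 factors, the basal keratin Krt14 was called higher at 1.66 (1.53 to 1.79) and the cell cycle inhibitor Cdkn1a at 1.76 (1.07 to 2.98). Kit was called lower on 14 and 12 UMIs, with an interval that included 1, and Cdh1 and Erbb2 were not called. Of the AP-2 cofactors, Cited2 was lower at 0.573 (0.468 to 0.6996) and Cited4 and Wwox higher at 4.81 (1.66 to 19.0) and 2.22 (1.01 to 5.39).

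In mesenchyme-like cells, the connective tissue of neural crest and mesoderm around the eye, Tfap2b was abundant but unevenly spread. The class held 2988 control and 2162 mutant cells in 5 clusters. Tfap2b had 12063 and 8582 UMIs, 275 CPM (270.4 to 280.3) and 266 CPM (261 to 272), in 54.5% and 54.2% of cells, a ratio of 0.967 (0.940 to 0.994). In the cluster led by Spp1, Mgp and Foxc1 it was at 414 and 458 CPM, in that led by the keratocyte genes Matn4 and Kera at 424 and 388 CPM, and in that led by Osr2, Foxl2 and Alx1 at 366 and 261 CPM. In the cluster led by the tendon genes Scx and Tnmd it was at 41.6 and 61.4 CPM and in that led by Crym, Cxcl12 and Aldh1a2 at 35.5 and 26.3 CPM. The first 3 clusters were thus several times above the last 2 in each library.

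The near-even total for Tfap2b hid opposite ratios in these clusters, none of which reached 1.5. The ratio was 0.714 (0.671 to 0.759) in the Osr2 and Foxl2 cluster, 0.741 (0.609 to 0.899) in the Crym and Cxcl12 cluster and 0.916 (0.876 to 0.957) in the keratocyte cluster. It was 1.11 (1.06 to 1.16) in the Spp1 and Foxc1 cluster and 1.48 (1.24 to 1.76) in the tendon cluster. Tfap2a was low beside it, counted 88 and 81 times, 2.01 CPM (1.61 to 2.47) and 2.51 CPM (2.00 to 3.12), and was densest in the Osr2 and Foxl2 cluster at 5.50 CPM (4.04 to 7.32) and 6.43 CPM (4.55 to 8.82). The UMIs of Tfap2b per UMI of Tfap2a were 137 (111 to 171) and 106 (85.2 to 134) over the class. Dlx5, a gene of skeletal mesenchyme, was too sparse to place among these 5 clusters, with 2.02 CPM (1.08 to 3.46) and 3.19 CPM (1.74 to 5.34) on 13 and 14 UMIs in the tendon cluster, intervals that overlap those of the Spp1 and Foxc1 cluster, and 0 UMIs of either library in the keratocyte cluster.

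**Figure D3:**
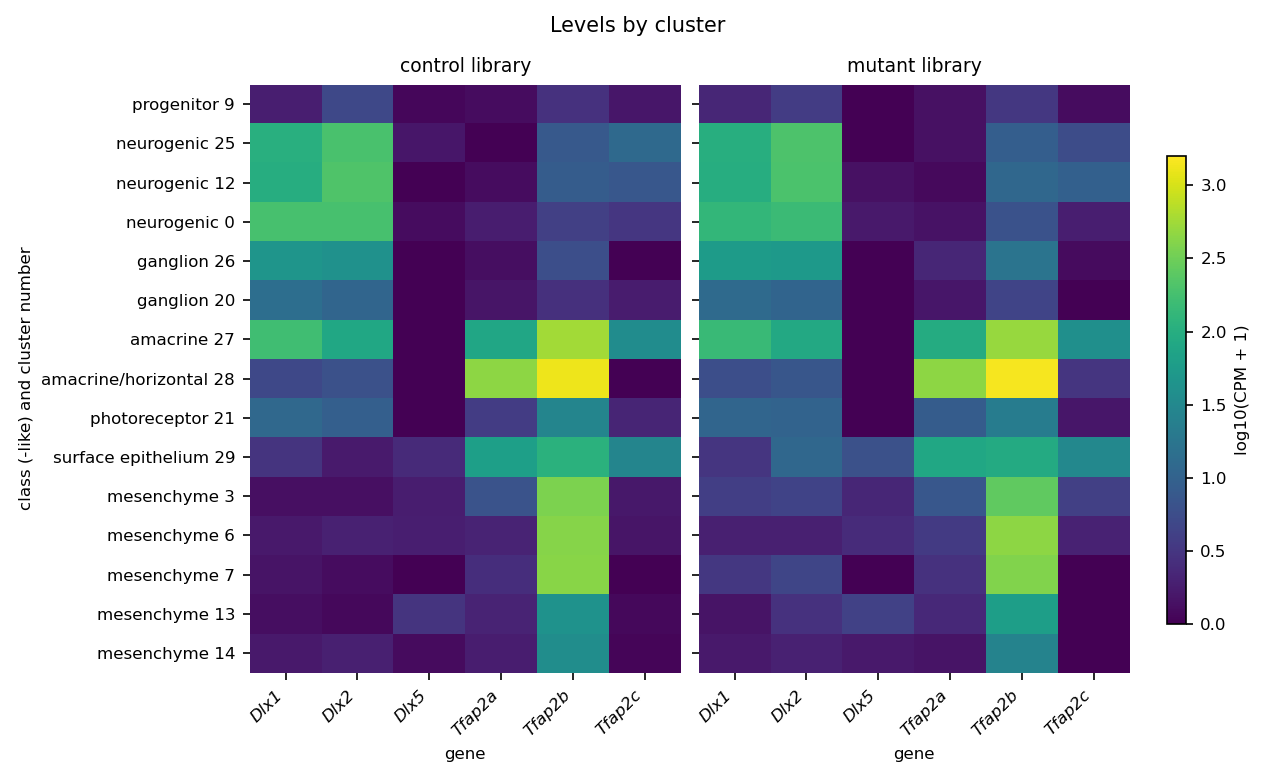
Level of each gene as log10(CPM + 1), by colour, in 15 clusters (rows, with class and cluster number) of the control library (left) and the mutant library (right). Dlx1 and Dlx2 were brightest in the 3 neurogenic clusters and the amacrine cluster, and Tfap2a in amacrine/horizontal 28. Tfap2b was brightest there, then in amacrine 27 and in mesenchyme 3, 6 and 7.

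Within mesenchyme-like cells, those with a Tfap2a or Tfap2b UMI after thinning differed from those without in other genes. Of 9077 genes ranked in the control, and not ranked anew in the mutant, the 8 highest were Dpt, Ecm1, Maob, Ptgs2os2, Ogfrl1, S100a6, Lypd1 and Tenm1, and the 8 lowest included Il33, Fam159b, Nts, Calca, Msc, Slitrk1 and Meox1. In the mutant all 16 had the same direction with an interval that excluded 1 (8 of 8 and 8 of 8). Dpt and Ecm1, extracellular matrix proteins, had ratios of 6.63 and 6.24 in the control and 3.41 (1.99 to 5.95) and 4.92 (3.58 to 6.82) in the mutant, and Maob, monoamine oxidase B, 5.90 and 10.5 (5.19 to 23.4). Among the lowest, the homeobox gene Meox1 (0.107 and 0.169) and the bHLH gene Msc (0.0557 and 0.106) are known from muscle and somite derivatives. Meox1 was also among the leading genes of the tendon cluster, where Tfap2b was low. At 5000 UMIs a cell the 8 highest in the control were others but for Ecm1, led by Plcxd3 and Wnt6, and the ratios of Ecm1 were 15.1 and 11.6. The comparison crosses the 5 clusters, so it also reflects in which cluster the cells lay.

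Dlx1, Dlx2, Dlx5 and Tfap2c were called higher in mutant mesenchyme-like cells, 4 of the 6 genes measured there, against 8.49% of all 14926 genes. Dlx1 was counted 22 times in control and 50 times in mutant cells, 0.502 CPM (0.315 to 0.7602) and 1.55 CPM (1.15 to 2.05), a ratio of 3.09 (1.84 to 5.36). Dlx2 had 24 and 73 UMIs, 0.548 CPM (0.351 to 0.815) and 2.26 CPM (1.78 to 2.85), a ratio of 4.13 (2.58 to 6.86). Tfap2c had 12 and 25 UMIs, a ratio of 2.83 (1.37 to 6.19), and Dlx5 30 and 35, a ratio of 1.59 (0.946 to 2.67) whose interval included 1. These levels were very low: after thinning, 0.168% of control and 0.280% of mutant cells had a Dlx2 UMI, and 0.134% and 0.186% a Dlx1 UMI. The erythroid-like shares given above were 0.211% and 0.484% for Dlx2 and 0% and 0.242% for Dlx1, and 0 of 475 cells allows a share of up to 0.632%, so at this depth the mesenchyme shares of neither gene could be told apart from that background. The same holds for Tfap2c, at 0.0672% and 0.280%, and Dlx5, at 0.168% and 0.233%, since 0 erythroid-like cells with a UMI allow up to 0.632% in the control and 0.726% in the mutant. Without thinning, Dlx5 was at 0.685 CPM (0.462 to 0.977) and 1.09 CPM (0.756 to 1.51) in mesenchyme-like cells. Erythroid-like cells had 0 Dlx5 UMIs, with intervals up to 0.453 and 0.528 CPM, which lay below those of the mesenchyme. The unthinned intervals of Tfap2c overlapped between these classes in each library. In erythroid-like cells the ratio of Dlx1 went in the same direction as these calls, 10.5 (2.51 to 93.2) on 2 and 18 UMIs. That of Dlx2 was 6.53 (2.49 to 21.6) there, on 5 and 28 UMIs. In immune-like cells the Dlx2 ratio was 4.99 (1.48 to 26.2), on 3 and 20 UMIs. Of the mutant UMIs, 5 cells held 77.8% (Dlx1) and 64.3% (Dlx2) in the erythroid-like class and 95% (Dlx2) in the immune-like class. Within the mesenchyme-like class, the ratios of Dlx1 and Dlx2 were raised in the Osr2 and Foxl2 cluster (3 against 17 and 3 against 20 UMIs). They were also raised in the keratocyte cluster (5 against 21 and 3 against 33 UMIs).

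Several other retinal transcripts were also higher in mutant mesenchyme-like cells, though not all lists of them. All 12 neurogenic markers, 4 of which are also among the lineage factors, were detected, and their summed level was 171 and 315 CPM, while in ganglion-like cells it was 1824 and 1753 CPM. The sum of the 8 progenitor markers was 477 and 669 CPM in mesenchyme-like cells, but that of the 10 ganglion markers was 322 and 282 CPM and that of the 8 RPE markers 18.0 and 11.4 CPM. Of the lineage factors 9 of 9 measured were called higher, with a median log2 ratio of 1.76 against -0.013 over all genes of the class, and Atoh7 was at 22.7 CPM (994 UMIs) and 85.6 CPM (2760 UMIs), a ratio of 3.77 (3.51 to 4.06). Of the genes linked to DLX factors 5 of 7 measured were called higher, Gad2, Pou4f2, Olig2, Otx2 and Crx, all of them retinal genes, while Ntrk2 and Nrp2, each above 100 CPM in both libraries, were not. Set against Atoh7, Dlx2 differed little between the libraries, with 24.1 (15.4 to 36.1) and 26.5 (20.7 to 33.4) UMIs per 1000 Atoh7 UMIs, and these values lay beside the 22.3 (21.2 to 23.4) and 23.2 (22.3 to 24.2) of the neurogenic class. In erythroid-like cells the values were 22.4 (7.21 to 53.1) and 31.8 (21.02 to 46.3), and in muscle-like cells 35.7 (4.22 to 135) and 22.2 (9.52 to 44.3). Amacrine-like cells stood apart at 122 (105 to 141) and 126 (111 to 143). The part of free RNA and of doublets in the mesenchyme values was not tested.

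**Figure D4:**
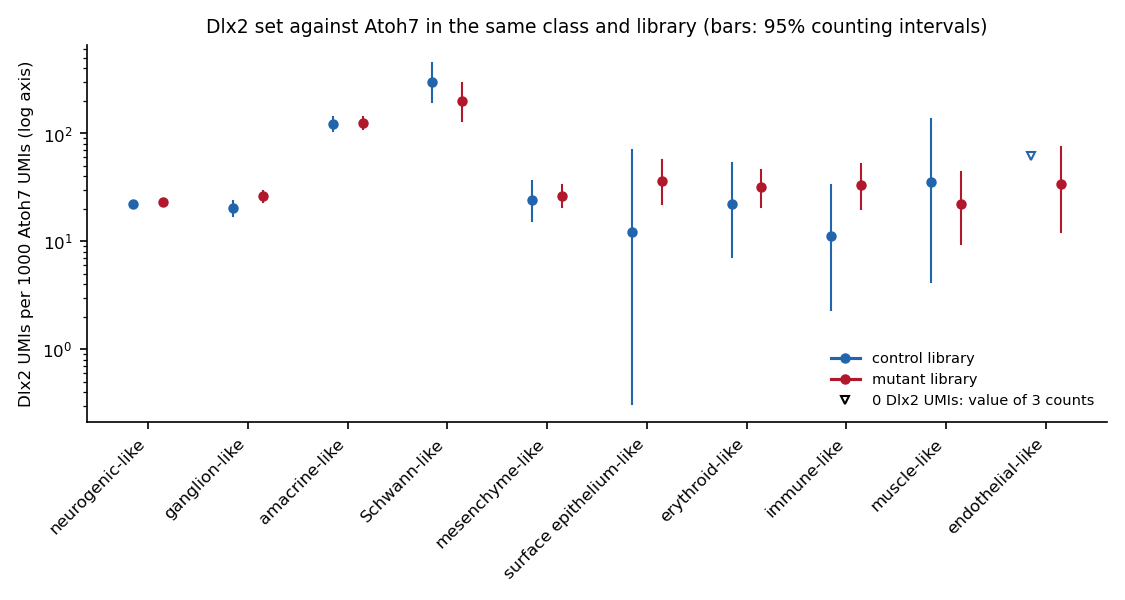
Dlx2 UMIs per 1000 Atoh7 UMIs of the same class and library, on a log axis, for the control (blue) and mutant (red) library, with 95% counting intervals as bars. An open triangle marks a class with 0 Dlx2 UMIs, at the value of 3 counts. Mesenchyme-like cells (24.1 and 26.5) lay next to neurogenic-like cells (22.3 and 23.2), and amacrine-like cells (122 and 126) lay above both.

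Over the 6 classes, 24 pairs of gene and class had enough UMIs for a ratio. Of these 6 were called higher in the mutant library, 0 lower, and 5 higher at a ratio of 2. Over all genes the called share was between 6.72% and 17.6% by class, and in mesenchyme-like cells, which held 4 of the 6, 872 genes were called higher and 395 lower. The calls were Tfap2b in ganglion-like cells, Dlx2 in surface epithelium-like cells and Dlx1, Dlx2, Dlx5 and Tfap2c in mesenchyme-like cells. In each of them the gene was under 20 CPM in the control, on at most 86 UMIs in a library. In the pairs where a gene had over 20 CPM in the control, its ratio lay between 0.803 and 1.26. Dlx1 in amacrine-like cells passed the size for a lower call under 4 of 9 alternatives, as given above. Single clusters inside these classes went further, with Dlx1 at 0.708 in a neurogenic cluster and Tfap2b at 0.714 and 1.48 in mesenchyme clusters. Schwann-like cells, outside these classes, had ratios of 0.530 for Tfap2a and 0.446 for Tfap2b.

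**Figure D5:**
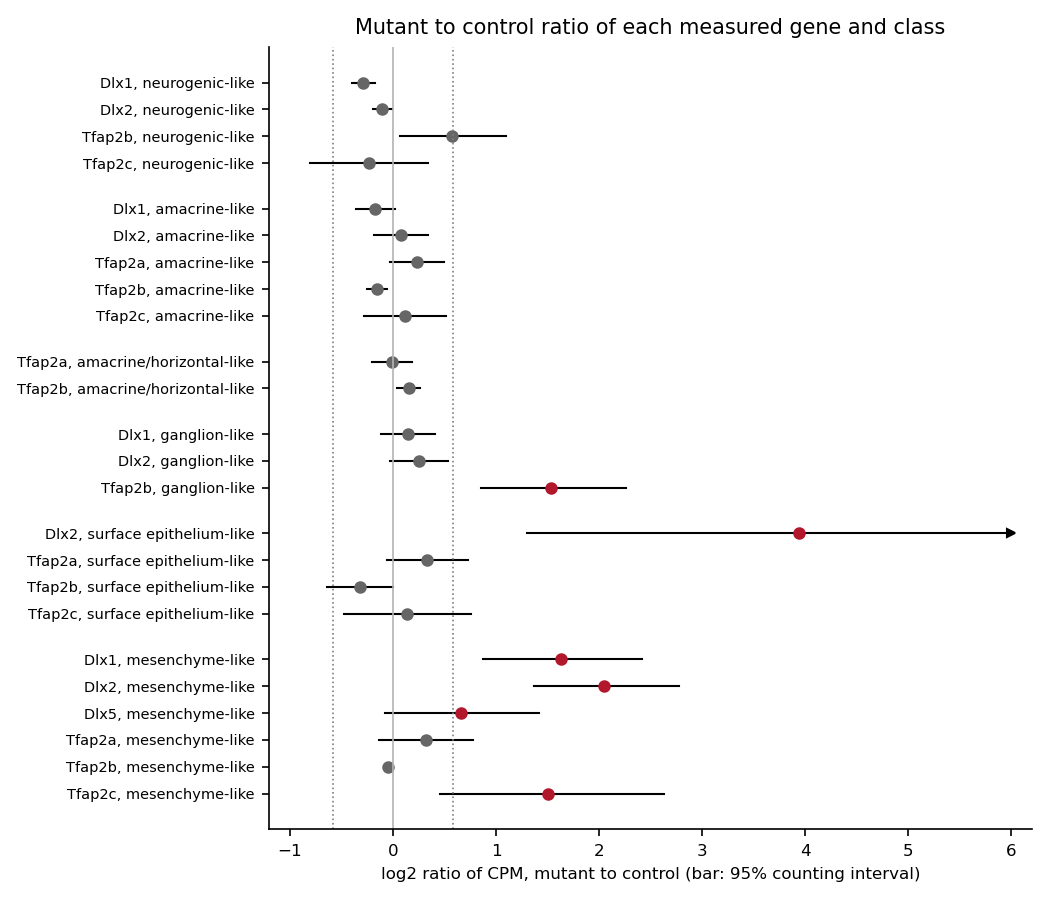
Log2 ratio of the mutant to the control level for each of the 24 pairs of gene and class with at least 20 UMIs, with 95% counting intervals as bars. Dotted lines mark a ratio of 1.5 in either direction, red points are calls, and an arrow marks an interval that runs past the axis. The 6 calls lie to the right of the line, 4 of them in mesenchyme-like cells.

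The other DLX and AP-2 genes of the mouse were scarcer, with 2 exceptions. Tfap2d had 583 control and 701 mutant UMIs and followed ganglion cells: it was at 47.1 CPM (42.3 to 52.4) and 38.1 CPM (34.2 to 42.2) in the ganglion-like class, a ratio of 0.808 (0.695 to 0.939), and at 22.4 CPM in both libraries in the neurogenic class. In neurogenic cells with Dlx1 or Dlx2 it was at 0.241 (0.0615 to 0.686) and 0.470 (0.157 to 1.18) of the level in those without. Dlx3, an epidermal and placental gene, had 134 and 200 UMIs, of which neurogenic-like cells held 56 and 105 (6.34 and 8.57 CPM), amacrine-like cells 34 and 36 (13.1 and 10.6 CPM) and surface epithelium-like cells 16 and 31 (10.99 and 16.4 CPM). Dlx4 had 7 and 6 UMIs, Dlx6 8 and 5, Dlx6os1 2 and 4 and Tfap2e 0 and 1. Dlx1as, the antisense gene beside Dlx1, had 20 and 28, and since the strand setting of the counting is not given in the sources used here, its reads may not be fully apart from those of Dlx1.

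The genes whose level over 30 clusters was most like each of the 6 were ranked by Pearson's r of log2(CPM + 1) in the control library, among 12836 genes. These r describe clusters that share a library, and no test was made. With a pseudocount of 10 CPM in place of 1, the nearest gene was again Dlx2 for Dlx1 and Galnt18 for Tfap2c, but Dlx1 for Dlx2, Fbxo32 for Tfap2a, Cygb for Tfap2b and Spon2 for Dlx5. Dlx1 was nearest to Dlx2 (0.9501 in the control, 0.933 in the mutant), then Insm2, Gal, Gadd45a and Rassf4, all at 0.921 or more in the control. Dlx2 was nearest to Gadd45a (0.960 and 0.940), Dlx1, Atoh7 (0.946 and 0.944), Insm2 and Gal. Tfap2a was nearest to Slc15a2 (0.763 and 0.604), Lhx1 (0.752 and 0.617), Pmfbp1, the GABA transporter gene Slc32a1 (0.726 and 0.705) and Fbxo32. Tfap2b, spread over mesenchyme and retina, was nearest to Spsb1 (0.769 and 0.665), Cygb (0.763 and 0.789), Drp2, Tshz2 and E330013P04Rik. Tfap2c was nearest to Galnt18 (0.795 and 0.794), the corneal keratin Krt12 (0.721 and 0.627), Rhbdl3, Emid1 and Mgarp, and the genes near Dlx5 included Pthlh (0.811 and 0.595), Abi3bp (0.806 and 0.846), Wnt2 and Spon2. Between families r was 0.029 and 0.080 for Dlx1 with Tfap2b and 0.621 and 0.564 for Dlx1 with Tfap2c, and within the AP-2 family 0.653 and 0.684 for Tfap2a with Tfap2b.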

How the data were processed

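Single-cell RNA was counted in 2 libraries of dissociated eye cups, 1 per genotype, with 1 matrix of UMI counts each. The authors deposited filtered count matrices over 31053 genes, unnormalized, as whole numbers. The submitters' processing notes name Cell Ranger 7.1.0, Seurat 4.1.1 and the mm10 genome, whereas the matrix headers carry software version 3.1.0, and the counting's strand setting is not given in the sources used here. Barcodes with at least 200 genes and at most 15% mitochondrial UMIs were kept, and doublets with a Scrublet score over 0.2 were removed from each library. That limit was set after the automatic one had marked 0 mutant cells. Counts were scaled to 10000 a cell and logged for clustering only (scanpy 1.11.5, 1875 of 2000 variable genes, 30 principal components, 15 neighbours, Leiden resolution 1.0). DLX, AP-2, listed and naming genes were left out of these features. Of 33 clusters, 28 were named from marker lists by a mean score of at least 1.5, a lead of 0.5 and at least 3 detected markers, limits set after seeing the data, and 5 stayed unnamed, 4 of them shallow. The RPE-like cluster, with 5 melanocyte and 4 RPE markers among its 10 leading genes, was compared for Myrf alone.

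Levels are summed raw counts of a class in CPM with exact Poisson 95% intervals, ratios between libraries have exact binomial intervals conditional on the sum of the counts, and shares have Clopper-Pearson intervals (scipy 1.17.1, numpy 2.4.6, pandas 2.3.3, Python 3.11.15, figures with matplotlib 3.10.9). A ratio needed 20 UMIs over both libraries and was called at 1.5 in either direction. With 1 library a group there is no test between genotypes, and no p-value is given. The ratio procedure was tested on simulated data. Shares of cells were also taken after thinning each cell to 2000 or 5000 UMIs without replacement, and shallower cells were left out. The text names all 6 genes, the 5 genes nearest in pattern to each of the 6, and the 8 highest and lowest genes beside them. Genes of fixed lists (other family members, genes linked to DLX or AP-2 factors, AP-2 cofactors, lineage factors) are given as counts or values. Not every list is given for every class. The 6 genes and these lists were chosen with earlier results of these data known. Promoter sequences come from RefSeq on GRCm38.p6 and gene positions from GENCODE vM21 on GRCm38. A few genes that these rules name are not reported here.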

Additional observations from a re-analysis of the deposited data

Results flagged for a closer look

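Tfap2a and Tfap2b had ratios beyond 1.5 in opposite directions in different cell classes, with counting intervals that excluded 1, and the difference between classes was not tested. On the log2 scale, mutant to control, Tfap2a was at -0.92 in Schwann-like cells (32 and 19 UMIs) and at 1.49 in photoreceptor-like cells (7 and 27 UMIs, 88.9% of the mutant ones in 5 cells). Tfap2b was at -1.17 in Schwann-like cells (38 and 19 UMIs) and -2.56 in immune-like cells (22 and 5 UMIs, 90.9% of the control ones in 5 cells). In the other direction Tfap2b was at 1.53 in ganglion-like cells, 1.66 in erythroid-like cells (7 and 19 UMIs), 1.96 in endothelial-like cells (10 and 28 UMIs) and 2.08 in muscle-like cells (14 and 49 UMIs). In these last 3 classes 5 cells held 89.5%, 96.4% and 75.5% of the mutant UMIs.

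The unnamed clusters entered no comparison, and 3 of the 5 held transcripts of some of these genes well above the level in erythroid-like cells of the same library. Tfap2b was at 134.4 (control) and 119 (mutant) CPM in cluster 2, led by Crym and Aldh1a2. Dlx2 was at 23.2 and 26.3 CPM in cluster 5, led by histone genes. In cluster 22, which has Prdm13, Ptf1a and Tubb3 among its leading genes, Dlx1 was at 83.7 and 98.0 CPM, Dlx2 at 58.4 and 80.2 CPM, Tfap2b at 77.8 and 103.3 CPM and Tfap2c, in the mutant, at 23.2 CPM. The median cell of the unnamed clusters had 1198 control and 1222 mutant UMIs, against 16961 and 16863 in erythroid-like cells. The depths compared were thus unlike, and whether these clusters express the genes was not tested.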

How the results depend on the processing

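Of 201 recomputed ratios, 161 stayed within the counting interval of the reported value and 39 moved outside it. In the remaining 1 a called ratio changed its sign. Changes of sign in ratios that were not called are counted as stayed or moved. Of 468 recomputed levels 299 stayed and 169 moved. The log2 ratio of Dlx1 in neurogenic-like cells, reported as -0.29, was -0.038 with a mitochondrial limit of 5%, 0.042 without cells over 20000 UMIs, -0.0755 at Leiden resolution 2.0 and -0.16 in cells with an Xist UMI and no Y-linked UMI. That of Dlx2 in the same class, -0.11, was 0.035 without cells over 20000 UMIs. Tfap2b in mesenchyme-like cells, -0.049, was at 0.026 with the 5% limit, -0.17 without cells over 20000 UMIs, -0.38 among cells of at most 2000 UMIs and 0.20 in the cells selected by Xist. Tfap2a in amacrine/horizontal-like cells, -0.0092, was at 0.19 at resolution 2.0, and Tfap2b in ganglion-like cells, 1.53, reversed to -0.067 with doublets kept. The cause was not tested. Of the 6 calls, Dlx1, Dlx2 and Tfap2c in mesenchyme-like cells and Dlx2 in surface epithelium-like cells were past 1.5 under every alternative that gave a value (9, 9, 8 and 3), Dlx5 in mesenchyme-like cells under 7 of 9 and Tfap2b in ganglion-like cells under 6 of 10. Leaving out the 5 cells richest in the gene kept 22 of 22 ratios within their interval, but the calls of Dlx2 in surface epithelium-like and Tfap2c in mesenchyme-like cells were left with too few UMIs for a value. Cells of at most 2000 UMIs gave no neurogenic or amacrine class, and the amacrine/horizontal cluster was not separate under 7 alternatives. No paired analysis was possible because each group has 1 library, and for the same reason no replicate could be left out. Depth limits the low counts: 3 UMIs in the amacrine-like class already make 1.15 CPM in the control.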

Other observations

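Schwann-like cells, glia of the peripheral nerves around the eye, held both families, and the class was small, with 38 control and 40 mutant cells. Dlx1 had 25 and 24 UMIs there, 41.3 CPM (26.7 to 60.98) and 35.4 CPM (22.7 to 52.6), and Dlx2 31 in each library, 51.2 and 45.7 CPM. Per 1000 Atoh7 UMIs this was 301 (195 to 454) and 199 (131 to 294) Dlx2 UMIs, above the neurogenic value in both libraries. Tfap2a was at 52.9 and 28.01 CPM, a ratio of 0.530 (0.284 to 0.963), and Tfap2b at 62.8 and 28.01 CPM, a ratio of 0.446 (0.243 to 0.793). Tfap2c and Dlx5 had 0 UMIs.

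Melanocyte-like cells, the other neural crest class, had Tfap2a almost alone, at 89.7 and 86.9 CPM (61 and 37 UMIs) in 58% and 50% of their 50 control and 30 mutant cells. Tfap2b had 7 and 5 UMIs, so that 0.115 (0.0443 to 0.251) and 0.135 (0.0415 to 0.345) Tfap2b UMIs went with each Tfap2a UMI. In photoreceptor-like cells Tfap2b was at 27.3 and 20.98 CPM (70 and 74 UMIs). A few cells carried this level: 5 cells held 65.7% and 60.8% of the UMIs, and 6.2% and 4.6% of cells had one.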
